A study of Mus musculus with 4 samples.

Results

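Myogenic cells of mouse skeletal muscle were compared between a bulk isolation and a satellite cell isolation kit. The cells were chosen by their own counts of 4 lineage genes: a barcode had to hold at least 3 molecules, counted as UMIs (unique molecular identifiers), of Pax7, Myf5, Myod1 and Myog together. Of these barcodes, only those with 200 or more genes seen and no more than 20% of UMIs from mitochondrial genes were kept. Barcodes with a UMI of Ptprc (the leukocyte antigen CD45) or Pdgfra (a receptor of fibro-adipogenic progenitors), or with 10% or more of their UMIs from the fibre genes Acta1 and Ckm, were left out. The rule found 1078 cells among 5674 kept cells and 6512 barcodes.

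The study asked which cells of muscle are reached by LNP-CRISPR, lipid nanoparticles that carry the gene-cutting CRISPR system, in a mouse model of Duchenne muscular dystrophy. All groups came from that model. The 4 groups were vehicle with bulk isolation, vehicle with the kit, LNP-CRISPR with bulk isolation and LNP-CRISPR with the kit, each as 1 library of 10x Chromium 3' chemistry. Strain, age, dose, time after injection and the number of animals behind a library are not given in the sources used here. With 1 library per group there was no test and no replicate check, so a difference between isolations cannot be told apart from a difference between the animals or preparations used. The kit libraries are compared with the bulk libraries within vehicle (the vehicle pair) and within LNP-CRISPR (the LNP-CRISPR pair), and the pairs share no library.

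Satellite cells are the stem cells of skeletal muscle and lie between the fibre and its basement membrane. Pax7 is the transcription factor that marks them, Myf5 and Myod1 are the factors that commit them to the muscle lineage, and Myog drives their exit from the cell cycle and their differentiation. Differentiating cells then switch on fusion proteins and an embryonic set of contractile proteins before adult fibre proteins replace it. In a dystrophic muscle fibres break down repeatedly, so quiescent, dividing and differentiating myogenic cells occur side by side.

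The rule took 37 of 1204 kept cells of vehicle bulk, a share of 3.07% (95% exact binomial interval 2.17 to 4.21). It took 458 of 1411 cells of vehicle kit, or 32.5% (30.02 to 34.97). LNP-CRISPR bulk gave 27 of 1152 cells, or 2.34% (1.55 to 3.39), and LNP-CRISPR kit 556 of 1907, or 29.2% (27.1 to 31.3). The share was thus 10.6 times higher with the kit in the vehicle pair (7.55 to 15.2) and 12.4 times higher in the LNP-CRISPR pair (8.46 to 19.0). These and all later intervals cover counting error only. The kit libraries also differed in depth: cells outside the rule held a median of 3965 and 6713 UMIs in the kit libraries against 22261 and 15851 in the bulk libraries, and the part of this gap in the shares was not tested.

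Myogenic cells themselves were deep in each library. Their median UMI count was 41406 in vehicle bulk, 22519.5 in vehicle kit, 24201 in LNP-CRISPR bulk and 29897 in LNP-CRISPR kit. Summed over cells this gave 1928211, 19535641, 945741 and 25980314 UMIs, so the bulk libraries set the precision. A count of 0 allowed up to 1.64, 0.162, 3.39 and 0.121 UMIs per 1000000 nuclear-encoded UMIs. Their median mitochondrial share was between 4.30% and 5.68%. Across the series 6 barcodes occurred in more than 1 library, and 0 of them were myogenic cells in more than 1. Near the threshold, 1, 20, 1 and 30 cells had exactly 3 UMIs of the 4 genes, and 0, 47, 0 and 51 kept cells had 2 UMIs. No doublet caller was run. Of the barcodes with enough lineage UMIs, 1, 0, 4 and 0 were left out for a Ptprc UMI and 5, 4, 5 and 9 for a Pdgfra UMI.

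The 4 rule genes describe the cells and were used to choose them, so their values carry no comparison. Pax7 had a UMI in 26 of 37, 319 of 458, 20 of 27 and 380 of 556 cells, against 0.343% to 2.83% of the cells outside the rule. Levels are given as CPM: all UMIs of a gene in the myogenic cells of a library, scaled to 1000000 UMIs of nuclear genes. Pax7 stood at 95.1, 65.9, 81.3 and 59.8 CPM in vehicle bulk, vehicle kit, LNP-CRISPR bulk and LNP-CRISPR kit, and later groups of 4 values keep this order. Myf5 stood at 173, 138, 157 and 115 CPM. Myod1 stood at 241, 212, 161 and 222 CPM. Myog stood at 573, 581, 243 and 621 CPM. Muscle genes outside the rule were present too: Des (desmin, the muscle intermediate filament) was seen in 36 of 37, 442 of 458, 27 of 27 and 547 of 556 cells, at 903, 814, 988 and 847 CPM. In the cells outside the rule Des stood at 27.0, 1032, 47.1 and 614 CPM, so it did not set the kit's myogenic cells apart. Cdh15 (M-cadherin, an adhesion protein of satellite cells) stood at 210, 168, 263 and 147 CPM, against 1.68, 36.1, 5.19 and 16.8 CPM in the other cells. Itga7 (the laminin-binding integrin of muscle) stood at 178, 167, 257 and 173 CPM.

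The cells were divided by Myog and by the share of UMIs from replication and mitosis genes, which gives ranges and not cell types. Cells with no Myog UMI and under 0.5% of such UMIs, called low-cycle cells below, were 22 of 37 in vehicle bulk (59.5%, interval 42.1 to 75.2) and 201 of 458 in vehicle kit (43.9%, 39.3 to 48.6). They were 14 of 27 in LNP-CRISPR bulk (51.9%, 31.9 to 71.3) and 210 of 556 in LNP-CRISPR kit (37.8%, 33.7 to 41.9). Cells with no Myog UMI and 0.5% or more, called cycling-range cells, numbered 3, 64, 3 and 97. Cells with a Myog UMI numbered 12, 193, 10 and 249, or 32.4%, 42.1%, 37.0% and 44.8%. Myog was part of the rule, so these shares describe the cells and no difference is read from them. The intervals of the bulk libraries overlapped those of the kit libraries for every range. Cells between 0.4% and 0.6% of cycle UMIs, near the dividing line, numbered 3, 75, 5 and 95 over all 3 ranges. A UMI count of exactly 1 put 1, 61, 0 and 81 of the Myog cells in their range.

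**Figure D1:**
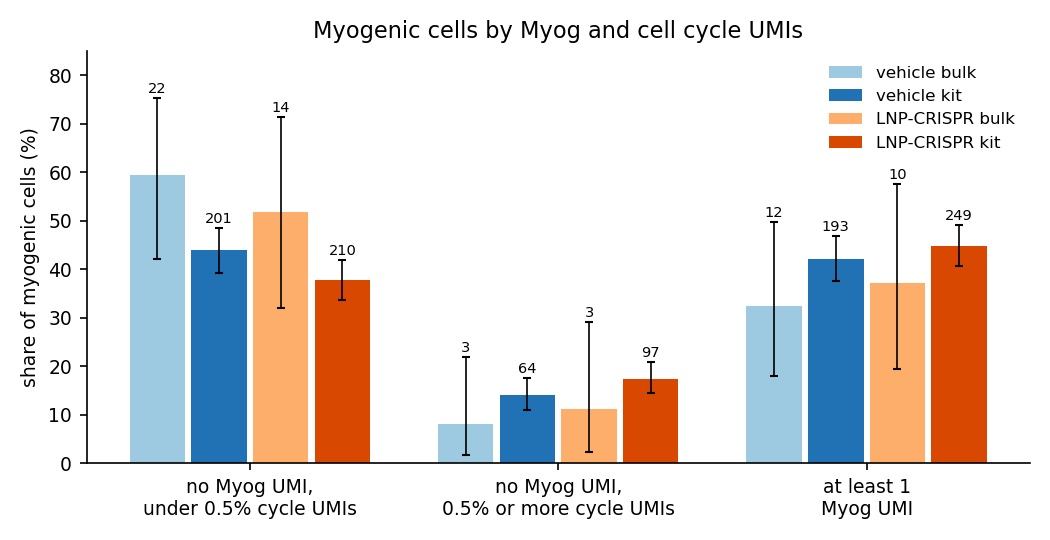
Share of myogenic cells (vertical axis, %) in the 3 ranges set by Myog and cell cycle UMIs, for the 4 libraries. Bars are shares, lines are exact binomial 95% intervals and the number over each bar is the count of cells, from 3 cycling-range cells in each bulk library to 249 Myog cells in LNP-CRISPR kit.

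Most genes differed little between the isolations. In the vehicle pair 9205 genes were measured (at least 10 UMIs expected in the shallower library) and 96.6% of them lay within 2-fold. In the LNP-CRISPR pair 7578 were measured and 94.1% lay within 2-fold. A gene was counted as higher or lower with the kit where the ratio of CPM reached 2-fold both over all cells and without the highest cell of each library. The latter step takes 1 of 37 or 27 bulk cells but 1 of 458 or 556 kit cells. It thus tends to raise the ratio of kit to bulk, and is stricter for lower than for higher genes. Ratios without the highest cells, here and below, are to be read against this. By this rule 110 genes (1.2%) were higher and 91 (0.989%) lower with the kit in the vehicle pair. In the LNP-CRISPR pair 67 (0.884%) were higher and 166 (2.19%) lower. These shares are the background for the counts of each gene list below. The split depended on scaling: centred on the median gene it was 133 higher and 76 lower in the vehicle pair and 100 higher and 110 lower in the LNP-CRISPR pair. With equal weight for each cell it was 301 and 90, and 150 and 121.

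The pairs agreed in part. Of 7557 genes measured in both pairs, 4917 (65.1%) had the same direction, with Pearson's r of 0.34 and Spearman's rho of 0.35 between the log2 ratios across genes, which are not independent replicates. The share with the same direction was 62.2% for genes below 20 CPM and 79.9% for the 443 genes above 300 CPM. Both pairs counted 21 genes (0.278%) as higher and 19 (0.251%) as lower with the kit, and 0 genes in opposite directions. The 21 higher genes were 19.1% of the 110 counted in the vehicle pair and 31.3% of the 67 counted in the LNP-CRISPR pair. Among counted genes that were measured in both pairs (72 and 65) they were 29.2% and 32.3%. The 19 lower genes were 20.9% of the 91 counted in the vehicle pair and 11.4% of the 166 counted in the LNP-CRISPR pair. Among those measured in both pairs (29 and 156) they were 65.5% and 12.2%. Of the 72 genes higher in the vehicle pair, 34 (47.2%) had a ratio above 1 in the LNP-CRISPR pair, and of the 29 lower ones 28 (96.6%) had one below 1. Of the 65 higher in the LNP-CRISPR pair 46 (70.8%) had the same direction in the vehicle pair, and of the 156 lower ones 133 (85.3%). Over all measured genes 3791 of 9205 had a ratio above 1 in the vehicle pair and 2871 of 7578 in the LNP-CRISPR pair. A ratio below 1 was thus the commoner direction in each pair, and the shares with the same direction are to be read against this.

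The agreement over all genes was smaller among cells of 1 range. It was 52.7% among low-cycle cells (2152 of 4084 genes) and 55.7% among Myog cells (2652 of 4763), where fewer bulk UMIs also stood behind each gene. Pearson's r and Spearman's rho were 0.13 and 0.05 among low-cycle cells, and 0.20 and 0.15 among Myog cells. When the kit cells were weighted so that the 3 ranges held the same share of UMIs as in the bulk library of the pair, the agreement was 61.4%. The correlations were then 0.29 and 0.27. The 2 latter settings were chosen after seeing the data.

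**Figure D2:**
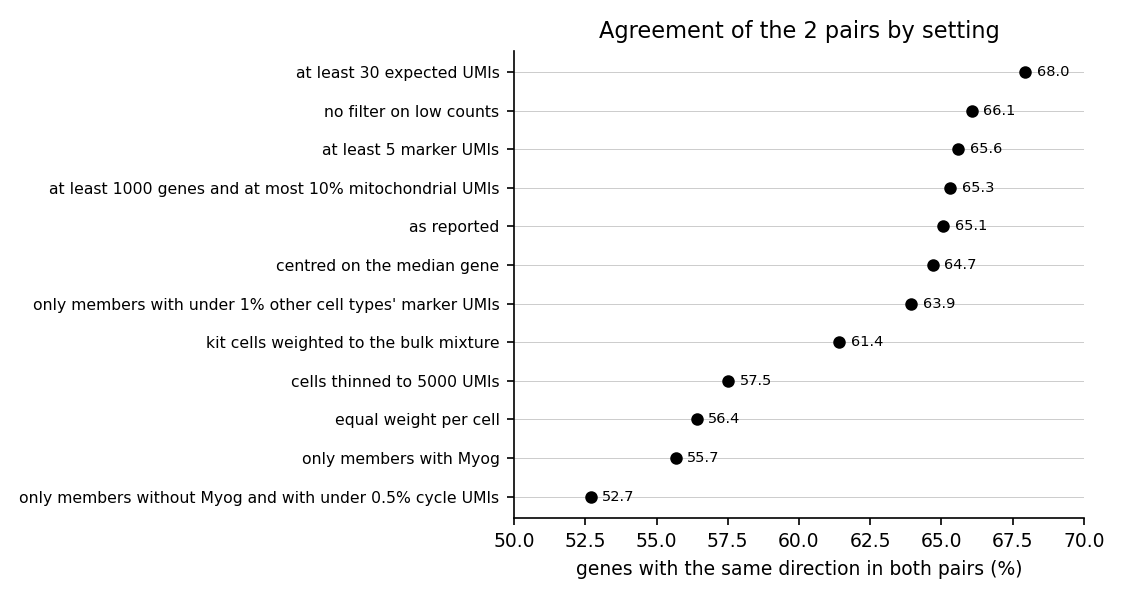
Share of genes measured in both pairs that had the same direction of kit against bulk (horizontal axis, %, starting at 50), by setting. It ran from 52.7% among low-cycle cells to 68.0% for genes with at least 30 expected UMIs, and was 65.1% as reported.

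**Figure D3:**
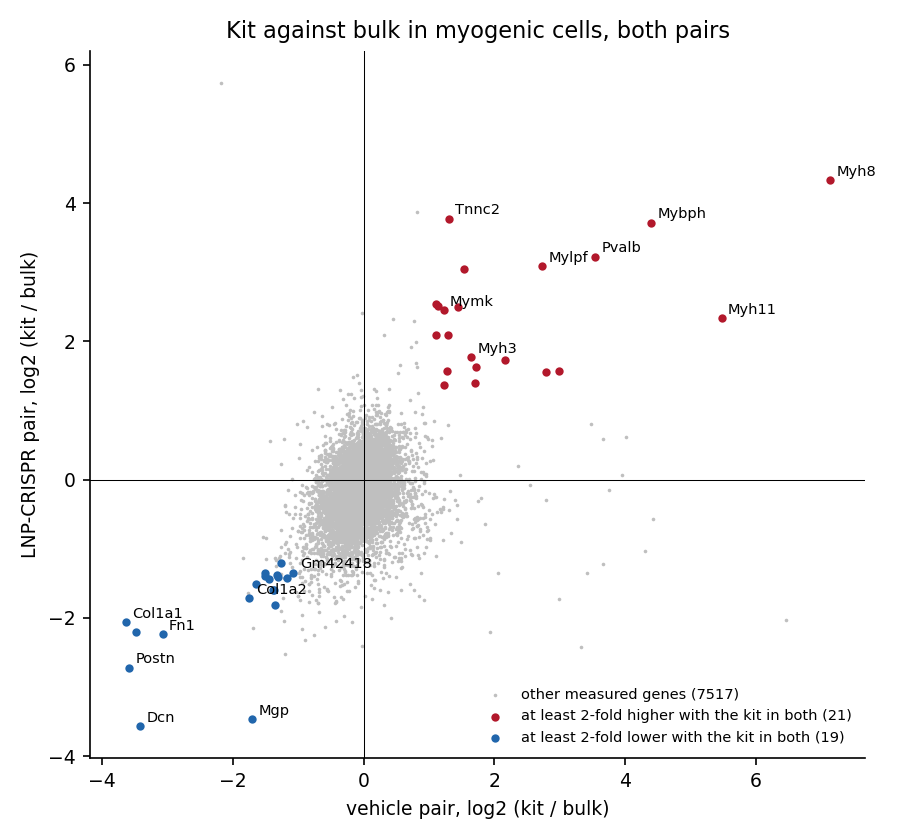
Log2 ratio of kit to bulk for each of 7557 genes, in the vehicle pair (horizontal axis) and the LNP-CRISPR pair (vertical axis). The 21 genes at least 2-fold higher in both pairs are red and the 19 lower in both are blue; most other genes lie near 0 in both.

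The genes higher with the kit in both pairs were mainly contractile genes: Myh8, Mybph, Pvalb, Mylpf, Myh11, Pgam2, Myh3, Actc1, Myh1, Myl1, Lmod3, Dqx1, Pgm5, Tnnc2, Cav3, Tnnt2, Mymk, Synpo2, Tagln, Tnni1 and Tnnt3. In 7 of the 21 (Myh8, Mybph, Myh3, Dqx1, Tnnt2, Mymk and Tnni1) the kit's myogenic cells held at least the CPM of the kit's other cells in both pairs. The other 14 were at higher CPM in the cells outside the rule of at least 1 kit library. Of all 21, 20 were also at least 2-fold higher in the kit's cells outside the rule in both pairs, where 12.4% (vehicle) and 10.7% (LNP-CRISPR) of measured genes were. The part of RNA from those cells in the result was not tested.

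Promoter sequences of 4 of these genes are shown because the genes were higher together in both pairs and their promoters hold CAGCTG, an E-box of the kind bound by Myod1 and Myog. They are the 250 bases before the RefSeq gene start on build GRCm38.p6, all on the plus strand, with CAGCTG in capitals. CAGCTG reads alike on both strands, so 1 search covers both. The Mylpf window is chr7:127211358-127211607, the Mybph window chr1:134193198-134193447, the Tnni1 window chr1:135799171-135799420 and the Tnnt2 window chr1:135836084-135836333. The Tnni1 and Tnnt2 windows each belong to 1 of 2 RefSeq starts, and by GENCODE M21 the Mylpf and Tnni1 windows lie within the span of the gene, while the Mybph and Tnnt2 windows lie before it.
Mylpf: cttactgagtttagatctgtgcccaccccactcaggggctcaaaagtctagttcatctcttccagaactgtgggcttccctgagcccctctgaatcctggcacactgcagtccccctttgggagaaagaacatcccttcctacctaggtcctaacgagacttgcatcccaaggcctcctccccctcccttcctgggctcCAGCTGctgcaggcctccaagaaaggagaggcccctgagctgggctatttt
Mybph: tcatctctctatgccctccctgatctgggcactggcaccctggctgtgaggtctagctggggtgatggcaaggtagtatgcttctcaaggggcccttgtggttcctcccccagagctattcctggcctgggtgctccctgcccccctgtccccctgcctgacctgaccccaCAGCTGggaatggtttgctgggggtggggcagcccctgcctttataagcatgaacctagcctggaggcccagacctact
Tnni1: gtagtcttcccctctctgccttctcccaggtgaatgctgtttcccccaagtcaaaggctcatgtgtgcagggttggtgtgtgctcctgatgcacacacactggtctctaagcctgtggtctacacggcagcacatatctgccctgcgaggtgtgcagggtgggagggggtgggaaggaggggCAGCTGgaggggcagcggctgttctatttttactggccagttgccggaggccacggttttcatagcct
Tnnt2: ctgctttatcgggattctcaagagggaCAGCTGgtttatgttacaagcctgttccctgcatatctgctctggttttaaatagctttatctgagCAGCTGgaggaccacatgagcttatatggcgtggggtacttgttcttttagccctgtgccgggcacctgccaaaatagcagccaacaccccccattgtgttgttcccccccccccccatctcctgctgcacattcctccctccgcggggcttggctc

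The E-box began 51 bases before the start in Mylpf, 79 in Mybph and 68 in Tnni1, and in Tnnt2 it occurred 223 and 157 bases before the start. Of the 21 genes, 15 were matched in the RefSeq table and 8 of these had the E-box in at least 1 window (9 of 18 windows, 50%). The windows of the Tnni1 starts overlap and hold the same E-box, so the window count includes this site more than once. Of all 27025 genes in the table, 14.7% had it (13.0% of 32851 windows). Of the 19 genes lower in both pairs, 12 were matched and 1 had it. A match is a description of the letters and not a site of binding.

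Embryonic and early sarcomere genes, the contractile set of newly formed muscle, were higher with the kit. Of 18 genes listed, 17 were measured in each pair; 11 were at least 2-fold higher and 0 lower in the vehicle pair, and 8 higher and 0 lower in the LNP-CRISPR pair. The median log2 ratio of the list was 1.64 and 0.62, against -0.08 and -0.13 over all measured genes, and 8 genes were higher in both pairs. The medians were 1.16 and 0.12 with cells thinned to 5000 UMIs, and 0.56 and 0.32 without cells of 1% or more other cell types' marker UMIs. Those markers included muscle fibre genes, so that setting also left out cells high in them. Myh3 (embryonic myosin heavy chain) stood at 41.5, 131, 44.0 and 152 CPM. Both kit libraries were above both bulk libraries, by 3.14 times in the vehicle pair (2.50 to 4.005) and 3.45 times in the LNP-CRISPR pair (2.52 to 4.86). Few cells carried it: 4 of 37, 64 of 458, 3 of 27 and 109 of 556 cells had a Myh3 UMI, and 1 bulk cell held 40 of 76 UMIs in vehicle and 31 of 39 in LNP-CRISPR. Without the highest cell of each library the Myh3 ratios were 4.78 and 13.01. With so few bulk cells this rise follows by construction and adds no support. Myh8 (perinatal myosin heavy chain) had 0 UMIs in vehicle bulk and 38.4 CPM in vehicle kit, at least 23.4-fold higher against a floor of 3 UMIs in the bulk library. In vehicle kit 1 cell held 458 of the 712 Myh8 UMIs, and without its UMIs the bound was 8.35-fold. In the LNP-CRISPR pair it stood at 1.13 CPM (1 UMI) and 34.3 CPM, a ratio of 30.3 (5.43 to 1200.03). Myh8 was a gene of few cells in the kit libraries too, with a UMI in 15 and 24 cells.

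Other members of the embryonic set moved with Myh3. Tnnt2 (the troponin T of heart and early muscle) stood at 89.1, 216, 95.9 and 288 CPM, ratios of 2.43 (2.08 to 2.86) and 2.997 (2.42 to 3.76). Actc1 (cardiac actin, also made in early muscle) stood at 95.7, 317, 91.4 and 286 CPM, ratios of 3.31 (2.85 to 3.87) and 3.12 (2.51 to 3.94). Tnni1 (slow troponin I) stood at 47.6, 104, 18.1 and 108 CPM, ratios of 2.18 (1.76 to 2.73) and 5.99 (3.68 to 10.5). In each of these genes both kit libraries lay above both bulk libraries. The share of cells with a Tnnt2 UMI was closer between isolations, at 32.4%, 31.9%, 33.3% and 37.4%. Actc1 was seen in 7, 144, 3 and 183 cells and Tnni1 in 6, 88, 6 and 108 cells. In LNP-CRISPR bulk 1 cell held 40 of the 81 Actc1 UMIs. Without the highest cells the ratios in the vehicle pair were 5.04 for Tnnt2, 6.01 for Actc1 and 3.70 for Tnni1, and in the LNP-CRISPR pair 5.33 for Actc1. Ttn (the giant spring protein of the sarcomere) did not differ by 2-fold, at 1150, 1064, 1206 and 1258 CPM.

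Among regulators of differentiation and fusion, 3 of 16 genes were higher in the vehicle pair, 4 of 16 in the LNP-CRISPR pair and 2 in both, with 0 lower and median log2 ratios of 0.03 and 0.38. They were Cav3 and Mymk in both pairs, Mef2c in the vehicle pair, and Chrng and Mymx in the LNP-CRISPR pair. Mymk (myomaker, a membrane protein required for fusion of myoblasts) stood at 51.4, 121, 28.2 and 157 CPM, ratios of 2.35 (1.91 to 2.92) and 5.58 (3.77 to 8.63). It was seen in 7 of 37, 132 of 458, 7 of 27 and 179 of 556 cells, and without the highest cells its ratios were 3.78 and 11.3. Mymx (myomixer, its fusion partner) was level in the vehicle pair, at 89.7 and 89.5 CPM, and stood at 56.4 and 132 CPM in the LNP-CRISPR pair. Chrna1 (the acetylcholine receptor alpha subunit) did not reach 2-fold in either pair, at 425, 377, 367 and 368 CPM. Cdkn1c (a cell cycle inhibitor) stood at 765, 1107, 801 and 1006 CPM, below 2-fold in both pairs.

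Adult fibre genes were also higher with the kit. Of 13 measured genes in each pair, 6 were higher in the vehicle pair and 7 in the LNP-CRISPR pair, with 0 lower, median log2 ratios of 1.11 and 1.57, and 5 higher in both. With equal weight for each cell the medians were 2.18 and 0.49, and without cells of 1% or more other cell types' marker UMIs 0.14 and 0.66, with 3 of 11 and 3 of 9 genes higher. Those markers included Pvalb, Tnnt3 and other genes of this list, so that setting left out cells high in the list by construction. Pvalb (parvalbumin, the calcium buffer of fast fibres) stood at 2.73, 35.1, 3.39 and 37.0 CPM, from 5, 651, 3 and 918 UMIs, ratios of 12.8 (5.47 to 39.7) and 10.9 (3.73 to 53.1). In LNP-CRISPR kit 1 cell held 481 of the 918 Pvalb UMIs, and without the highest cell of each library the ratio of that pair was 6.17. Tnnt3 (fast troponin T) stood at 112, 242, 71.1 and 307 CPM. Without the highest cells the Tnnt3 ratio was 3.43 in the vehicle pair in place of 2.17. Both genes were higher in each kit library than in either bulk library.

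Mylpf (the fast regulatory light chain), which was placed in the embryonic list and is also made by fast fibres, was spread over cells unlike Myh3. It stood at 86.4, 577, 85.8 and 735 CPM, ratios of 6.68 (5.71 to 7.86) and 8.57 (6.84 to 10.9). A Mylpf UMI was seen in nearly every kit cell (452 of 458 and 545 of 556) and in a minority of bulk cells (11 of 37 and 11 of 27), with a median over cells of 209 and 130 CPM in the kit libraries and 0 in both bulk libraries. Without the highest cells the vehicle ratio of Mylpf was 10.5.

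The cells outside the rule held far more Mylpf in the kit libraries. Mylpf in those cells was at 95.7 CPM in vehicle bulk, 15406 in vehicle kit, 112 in LNP-CRISPR bulk and 5638 in LNP-CRISPR kit. The 9 muscle fibre markers include Tnnt3, Tnnc2, Pvalb and Myh1, which are among the genes higher in both pairs. Their sum is thus not separate from those genes. Over the 9 markers the myogenic cells summed to 390, 889, 304 and 959 CPM and the other cells to 153, 22903, 209 and 8833 CPM. Myh4 was at 0 in vehicle bulk and each of the other markers was above 0 in every library. The part of free fibre RNA or of doublets in these ratios was not tested. Myh3, by contrast in level, stood at 0.231, 4.08, 0.170 and 33.2 CPM in the cells outside the rule, below its level in the myogenic cells of the same library.

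**Figure D4:**
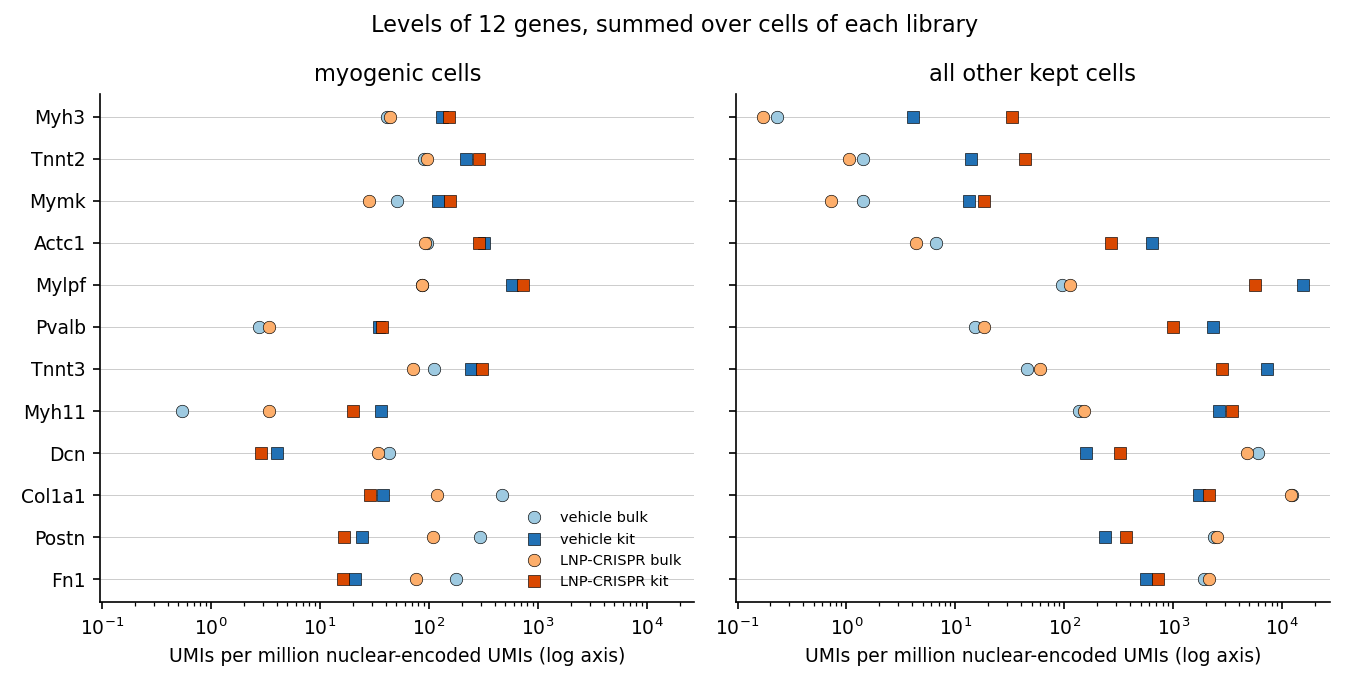
CPM (log axis) of 12 genes summed over myogenic cells (left) and over all other kept cells (right) of the 4 libraries; circles are bulk, squares are kit. Myh3, Tnnt2, Mymk, Mylpf and Pvalb are higher and Dcn, Col1a1, Postn and Fn1 lower with the kit in both panels, and the 2 bulk points of Mylpf (86.4 and 85.8 CPM) overlap.

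Among low-cycle cells the 2 contractile lists went apart. The median of the embryonic list turned to -0.04 in the vehicle pair and -2.26 in the LNP-CRISPR pair, on few UMIs. Myh3 then had 1 and 10 UMIs in the vehicle pair and 0 and 27 in the LNP-CRISPR pair, too few to be measured. Actc1 then stood at 137 CPM in LNP-CRISPR bulk, all from 1 cell, against 11.4 in LNP-CRISPR kit. The adult fibre list kept medians of 0.93 and 1.37. Mylpf, though of the embryonic list, stood at 5.99 CPM in bulk and 254 in kit low-cycle cells of vehicle, and at 10.3 and 199.5 CPM in those of LNP-CRISPR.

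Among Myog cells only, the embryonic list stayed higher with the kit, with medians of 1.59 and 1.39. In those cells 20 genes were at least 2-fold higher with the kit in both pairs, 14 of them among the 21. With the kit cells weighted to the bulk mixture, 22 genes were higher in both pairs, including all 21, and the medians of the embryonic list were 1.58 and 0.36. With cells of 1% or more other cell types' marker UMIs left out (1, 17, 0 and 19 cells), 5 genes were higher in both pairs in place of 21. These markers included Tnnt3, Tnnc2, Pvalb, Myh1, Myh11 and Tagln, which are among the 21. The setting thus left out cells high in the counted genes, and no conclusion is drawn from the fall.

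Among the 21 were also genes known from smooth muscle. Myh11 (smooth muscle myosin) stood at 0.547, 36.6, 3.39 and 20.03 CPM, from 1 and 3 UMIs in the bulk libraries, ratios of 66.9 (11.96 to 2645) and 5.91 (2.01 to 28.8), the latter 9.58 without the highest cells. Tagln (transgelin, an actin-binding protein of smooth muscle) stood at 43.7, 97.2, 14.7 and 86.6 CPM, ratios of 2.22 (1.78 to 2.82) and 5.90 (3.45 to 11.1). Both kit libraries lay above both bulk libraries for each gene. The 8 pericyte or smooth muscle markers include Myh11 and Tagln, so their sum is not separate from these genes. Kcnj8 among them was at 0 in both bulk libraries. The 8 markers summed to 534, 753, 395 and 646 CPM in myogenic cells and to 585, 11634, 704 and 15671 CPM in the other cells. Their part in the result was not tested.

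Genes lower with the kit in both pairs were led by the collagenous matrix: Dcn, Postn, Fn1, Col6a3, Col1a1, Col1a2, Mgp, Il13ra1, Slc37a3, Col4a5, Nid1, Ttyh2, Creb3l1, Ssc5d, Sipa1l2, Vasn, Creb3l2, Kdelr3 and Gm42418. In the interstitial matrix list 8 of 21 measured genes were lower in the vehicle pair and 8 of 19 in the LNP-CRISPR pair, 6 in both, with 0 higher. The medians were -1.49 and -1.05, and 19 of 19 genes measured in both pairs had a ratio below 1 in each. The medians stayed below 0 in the 11 alternatives tried, at -0.68 and -0.56 among low-cycle cells, -0.79 and -0.50 with equal weight for each cell and -0.76 and -0.43 with cells thinned.

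Col1a1 (the alpha 1 chain of type I collagen) stood at 468, 37.5, 119 and 28.5 CPM, 12.5 times (11.3 to 13.8) and 4.16 times (3.36 to 5.11) higher in bulk. It was seen in 34 of 37 and 26 of 27 bulk cells against 153 of 458 and 206 of 556 kit cells. In vehicle bulk 1 cell held 619 of 856 UMIs, and without the highest cells the kit-to-bulk ratio was 0.249 in the vehicle pair. Dcn (decorin, a proteoglycan of fibroblasts) stood at 42.6, 3.99, 33.9 and 2.90 CPM, 10.7 times (7.68 to 14.9) and 11.7 times (7.36 to 18.1) higher in bulk. It was seen in 22 of 37, 36 of 458, 19 of 27 and 43 of 556 cells. Both genes were thus seen in most bulk cells and in a minority of kit cells.

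Postn (periostin, a matrix protein of remodelling tissue) stood at 294, 24.5, 108 and 16.5 CPM. It was 11.99 times (10.6 to 13.6) and 6.56 times (5.20 to 8.21) higher in bulk, and remained lower with the kit in low-cycle cells, at 302 and 57.8 CPM in vehicle and 227 and 46.9 CPM in LNP-CRISPR. In vehicle bulk 1 cell held 263 of 537 Postn UMIs. The vehicle difference was 7.23-fold when the highest cells were left out. Fn1 (fibronectin) stood at 177, 21.0, 75.6 and 16.2 CPM, 8.42 times (7.24 to 9.78) and 4.67 times (3.55 to 6.06) higher in bulk. In vehicle bulk 1 cell held 222 of 323 Fn1 UMIs and in LNP-CRISPR bulk 1 cell held 29 of 67, and without the highest cells Fn1 was 2.99 and 3.01 times higher in bulk. Col1a2, the partner chain of Col1a1, stood at 774, 231, 573 and 175 CPM, 3.36 times (3.16 to 3.56) and 3.27 times (2.98 to 3.58) higher in bulk, and 2.17 times in the vehicle pair without the highest cells. For these genes both bulk libraries lay above both kit libraries. Col3a1 (type III collagen) was lower with the kit but under the 2-fold rule, at 637, 299, 417 and 256 CPM.

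In the cells outside the rule 17 of the 19 genes had the same direction in both pairs. Col4a5 did not, at 30.9, 67.1, 27.0 and 74.9 CPM, nor did Sipa1l2, at 18.1, 40.8, 18.7 and 56.9 CPM. Col1a1 stood there at 12272, 1711, 12115 and 2143 CPM, and Dcn at 5939, 158, 4737 and 322 CPM. Of the 19 genes, 12 were at least 2-fold lower with the kit in the cells outside the rule in both pairs, where 11.7% (vehicle) and 9.61% (LNP-CRISPR) of measured genes were. The 11 fibro-adipogenic markers other than Pdgfra include Dcn and Col1a1, so their sum is not separate from these genes. Dpp4 among them was at 0 in both bulk libraries. The 11 markers summed to 1360, 444, 791 and 363 CPM in myogenic cells and to 39200, 2718, 33262 and 3569 CPM in the others. Their part in the result was not tested. Weighted to the bulk mixture, 9 genes were lower in both pairs, all among the 19.

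Basement membrane genes, the sheet on which satellite cells rest, were lower with the kit in smaller numbers. In the vehicle pair 2 of 14 and in the LNP-CRISPR pair 4 of 13 were at least 2-fold lower, with 0 higher and medians of -0.46 and -0.77. They were Col4a5 and Nid1 in both pairs, with Col18a1 and Lama5 in the LNP-CRISPR pair. Nid1 (nidogen) stood at 27.3, 10.6, 29.3 and 9.83 CPM, 2.59 times (1.86 to 3.54) and 2.98 times (1.91 to 4.48) higher in bulk. Hspg2 (perlecan) stood at 184, 117, 181 and 106 CPM, and Sparc at 865, 584, 769 and 560 CPM, both under 2-fold. Col4a1 stood at 159, 139, 129 and 153 CPM, and without the highest cells its ratio was above 1 in both pairs, at 1.07 and 1.59.

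A single gene of the 19 was richer in myogenic cells than in the rest of both bulk libraries. Ttyh2 (a membrane protein of the tweety family) was that gene, at 25.7, 10.0, 22.6 and 7.62 CPM, 2.56 times (1.82 to 3.55) and 2.96 times (1.77 to 4.71) higher in bulk. Creb3l1, a transcription factor of collagen-secreting cells, stood at 48.7, 19.1, 46.3 and 13.3 CPM. Gm42418, an abundant transcript that overlaps ribosomal RNA sequence, stood at 20232, 9620, 24239 and 9545 CPM and was seen in every myogenic cell. Its level was 2.10 and 2.54 times higher in bulk myogenic cells, whereas in the cells outside the rule it stood at 38897, 33816, 41661 and 32604 CPM. Among low-cycle cells 3 genes were lower in both pairs: Postn, Gm42418 and Lars2 (the mitochondrial leucyl-tRNA synthetase), the last named after its values were seen. Lars2 stood at 898 and 418 CPM in low-cycle cells of the vehicle pair and at 1178 and 352 CPM in those of the LNP-CRISPR pair.

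Genes of satellite cell identity outside the rule were not counted as different: 0 of 8 in either pair, with medians of -0.13 and -0.71. All 8 were below 1 in the LNP-CRISPR pair and 6 of 8 in the vehicle pair. Cdh15 was 0.799 times (0.718 to 0.891) the bulk level in the vehicle pair and 0.558 times (0.489 to 0.640) in the LNP-CRISPR pair. Among quiescence genes 1 of 27 (Calcr, the calcitonin receptor) was higher in the vehicle pair and 0 of 26 were counted in the LNP-CRISPR pair, with medians of -0.26 and -0.67. Vcam1 (an adhesion receptor of satellite cells) stood at 254, 262, 389 and 287 CPM, and Sdc4 (syndecan-4, a surface proteoglycan) at 461, 493, 702 and 572 CPM. In vehicle low-cycle cells the quiescence median turned to 0.03.

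In the Notch pathway, which keeps satellite cells quiescent, 0 of 13 and 0 of 11 genes were counted, and the medians were -0.32 and -0.93. Notch3 stood at 61.8, 38.1, 64.3 and 27.5 CPM, and Heyl (a Notch target) at 65.1, 32.8, 53.1 and 21.0 CPM, both higher in bulk in each pair. In the LNP-CRISPR pair both passed 2-fold over all cells. Neither was counted there, because the difference was under 2-fold without the highest cell of each library. Hes1, a further target, was level in the vehicle pair (126 and 123 CPM) and stood at 319 and 89.2 CPM in the LNP-CRISPR pair, where 1 bulk cell held 151 of 283 UMIs. Among Myog cells the median of the LNP-CRISPR pair turned to 0.04.

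Housekeeping programmes were close to level. Ribosome biogenesis genes had medians of 0.29 and 0.43, with 14 of 17 above 0 in each pair and 0 counted. Ncl (nucleolin) stood at 1643, 2108, 1404 and 2515 CPM and Npm1 (nucleophosmin) at 2856, 3324, 2350 and 3551 CPM, both higher with the kit by less than 2-fold. The median of the vehicle pair was -0.08 in low-cycle cells. Ribosomal proteins (0.07 and 0.15), nuclear oxidative phosphorylation genes (0.08 and 0.19) and glycolysis genes (-0.01 and 0.20) had 0 genes counted in either pair. Gapdh, a glycolytic enzyme, stood at 2762, 2761, 2345 and 2498 CPM.

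Of the immediate early genes, the transcription factors switched on within minutes of a stimulus, 2 of 27 were higher in the vehicle pair and 5 of 26 lower in the LNP-CRISPR pair, with medians of 0.14 and -0.76. The first were Atf3 and Nr4a2 and the 5 lower ones Fos, Fosb, Egr1, Egr2 and Egr3. Of all measured genes 1.2% were higher in the vehicle pair and 2.19% lower in the LNP-CRISPR pair. Fos stood at 325, 403, 962 and 275 CPM and Fosb at 134, 231, 444 and 146 CPM, so LNP-CRISPR bulk was the highest library for each. Egr1 stood at 579, 507, 853 and 368 CPM. Heat shock genes had medians of 0.32 and 0.33, with 1 of 14 (Hspa1b) higher in the vehicle pair and 0 counted in the LNP-CRISPR pair, and Hsp90aa1 stood at 1578, 1989, 1501 and 2006 CPM.

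Few inflammatory genes were counted as different between the isolations. Nfkbia (the inhibitor of NF-kB that NF-kB itself induces) stood at 353, 436, 815 and 851 CPM, with both LNP-CRISPR libraries above both vehicle libraries. Cxcl1 (a neutrophil-attracting chemokine) stood at 171, 288, 775 and 706 CPM. In the NF-kB list 1 of 19 genes (Cxcl10) was higher with the kit in the vehicle pair and 0 of 20 were counted in the LNP-CRISPR pair, with medians of 0.20 and -0.36. In the interferon list 1 of 14 (Lgals3bp) was lower in the vehicle pair and 0 of 6 were counted in the LNP-CRISPR pair. Its medians were -0.62 and -0.80, against -0.08 and -0.13 over all measured genes. Only 1 of the 14 and 1 of the 6 had a ratio above 1. In the MHC class I list 0 of 8 were counted in the vehicle pair and 1 of 7 (Psmb8) was lower in the LNP-CRISPR pair. Its medians were -0.27 and -0.65. The unfolded protein response (medians -0.18 and -0.18) had 1 gene higher (Asns) and 1 lower (Ddit3) of 14 in the LNP-CRISPR pair and 0 counted in the vehicle pair. No p53 target was counted (medians -0.16 and 0.22), and among surface proteins of satellite cells (medians -0.22 and -0.37) 1 of 14 (Calcr again) was higher in the vehicle pair. Beside these counts, 1.2% of all measured genes were higher and 0.989% lower in the vehicle pair. In the LNP-CRISPR pair the shares were 0.884% and 2.19%.

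Cell cycle genes rested on few bulk cells. Replication-dependent histones had 3 of 13 (Hist1h1a, Hist1h1b and Hist1h4i) higher in the vehicle pair and 0 counted in the LNP-CRISPR pair, with medians of 0.84 and -0.29. Hist1h2ap stood at 188, 339, 1137 and 516 CPM and was seen in 13 of 37, 208 of 458, 10 of 27 and 303 of 556 cells, with 1 LNP-CRISPR bulk cell holding 274 of 1007 UMIs. No gene of the DNA replication list (0 of 21, medians 0.50 and -0.09) or the mitosis list (0 of 23, medians 0.02 and -0.25) was counted. Mki67, the proliferation antigen, stood at 281, 261, 283 and 268 CPM.

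Genes of the dystrophin complex, which links the fibre to its matrix and is lost in this disease, had medians of -0.17 and -0.41 (0.05 in the vehicle pair with equal weight for each cell). Of the list, 2 of 14 genes were higher in the vehicle pair and 1 of 11 in the LNP-CRISPR pair, with 0 lower. Cav3 (caveolin-3, a membrane protein of muscle) was higher with the kit in both pairs, at 10.4, 26.0, 7.90 and 36.0 CPM, and 1 vehicle bulk cell held 13 of its 19 UMIs (ratio 5.55 without the highest cells in place of 2.51). Dag1 (dystroglycan) stood at 640, 550, 848 and 536 CPM and Utrn (utrophin, the relative of dystrophin) at 121, 83.8, 115 and 87.0 CPM, both under 2-fold.

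**Figure D5:**
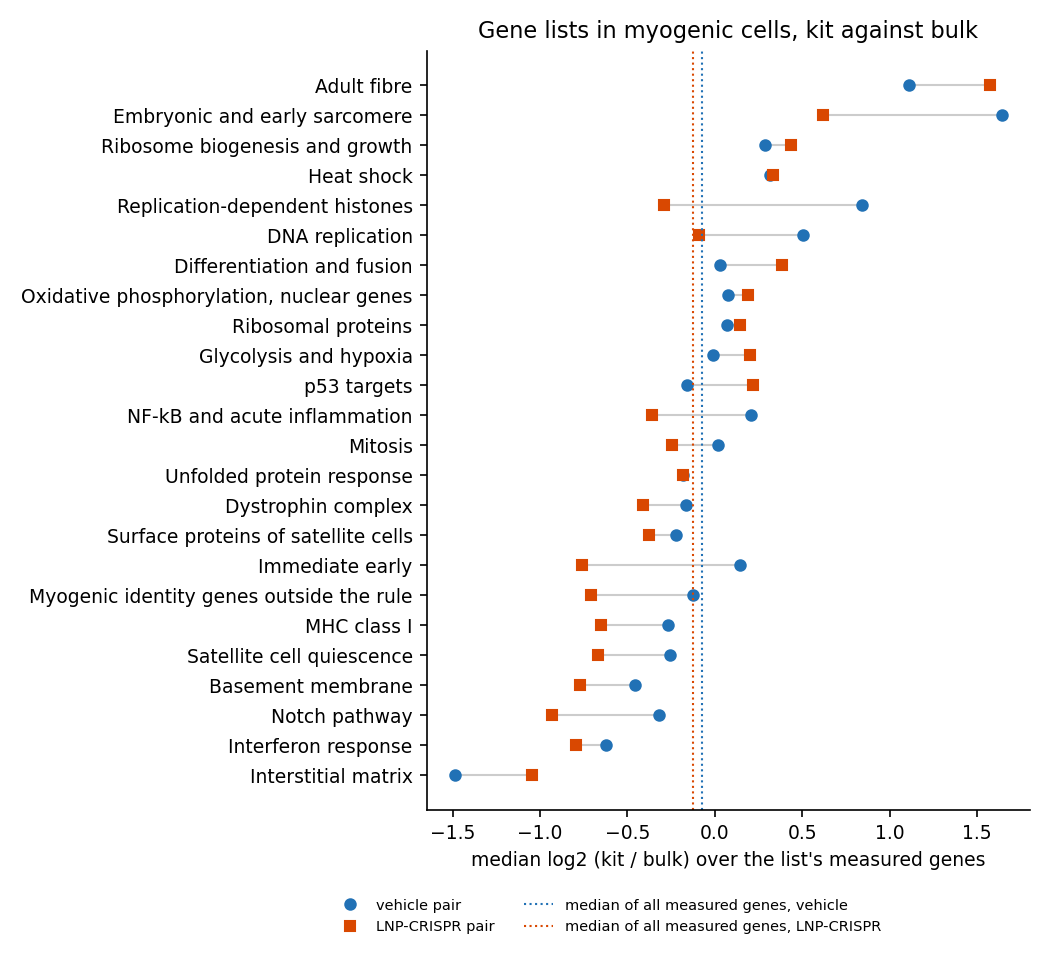
Median log2 ratio of kit to bulk over the measured genes of each list (horizontal axis), for the vehicle pair (circles) and the LNP-CRISPR pair (squares); dotted lines mark the medians over all measured genes, -0.08 and -0.13. The adult fibre and embryonic sarcomere lists lie to the right in both pairs, interstitial matrix lies to the left, and immediate early genes and histones lie on opposite sides of 0.

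Cas9, the nuclease of the CRISPR system, was counted as a feature beside the mouse genes. It had 0 UMIs in the myogenic cells of both vehicle libraries. In LNP-CRISPR bulk it had 80 UMIs (90.3 CPM) and was seen in 19 of 27 cells, or 70.4% (49.8 to 86.2). In LNP-CRISPR kit it had 6487 UMIs (261 CPM) and was seen in 213 of 556 cells, or 38.3% (34.3 to 42.5). The CPM was thus 2.90 times higher with the kit (2.32 to 3.66), and 4.44 times without the highest cell of each library, while the share of cells was lower, so no order is read from the share. Thinned to 5000 UMIs per cell, with 0 bulk and 19 kit cells left out as shallower, the shares were 29.6% (13.8 to 50.2) and 19.9% (16.6 to 23.6).

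Cas9 was uneven among cells in both isolations. The highest cell held 33 of 80 UMIs in LNP-CRISPR bulk and 642 of 6487 in LNP-CRISPR kit, and 4 of 27 and 89 of 556 cells (14.8% and 16.01%) had at least 4 UMIs. In the cells outside the rule a Cas9 UMI was seen in 69.5% of bulk and 23.02% of kit cells, at median depths of 15851 and 6713 UMIs, or 56.5% and 16.1% after thinning. The share in bulk myogenic cells was thus at about the level of the other bulk cells before thinning and below it after.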

How the data were processed

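Single cells of skeletal muscle were measured in 4 libraries, 1 per group of treatment and isolation. The deposited values are raw UMI counts per gene and barcode, as the authors made them. They were made with cellranger 5.0.1 per the file headers, whereas Cell Ranger 7.0.1 with build mm10 is given in the submitters' processing notes. The files hold 32286 features, 32285 mouse genes and the added Cas9. Members and gene lists were chosen with earlier results of these data known.

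UMIs were summed over the myogenic cells of a library and scaled to 1000000 nuclear-encoded UMIs, leaving out mitochondrial genes and Cas9 (python 3.11.15, numpy 2.4.6, scipy 1.17.1). A gene was measured in a pair where the mean of its 2 CPM values gave at least 10 expected UMIs in the shallower library, so a gene near 0 in a bulk library could pass through the kit library. Ratios used a pseudocount of 0.5 UMI for the 2-fold rule and for log2 values, and ratios in the text use none except those without the highest cells. Ratios have exact conditional binomial 95% intervals. The 8 genes of the member rule were described and not counted. No p-value was computed. Cells were not clustered and doublets were not called.

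Named genes were those higher or lower in both pairs and seen in at least 3 cells, ranked by the smaller log2 ratio (up to 10 richer in myogenic cells than in the rest and 5 others per direction), and the 3 most abundant measured genes of each of 24 lists. Fos, Fosb, Egr2, Egr3, Mymx, Notch3, Heyl, Tagln, Nid1, Col4a5, Sipa1l2, Creb3l1, Gm42418, Cav3, Lars2, Erfe, H19, Ogn and the genes given by name only lie outside this rule and were named after their values were seen. Positions came from GENCODE M21 and promoters from the RefSeq table of GRCm38.p6. The script was tested on simulated data. Some single-gene results are not reported here. There were 11 alternatives, 9 planned and 2 chosen after seeing the data.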

Additional observations from a re-analysis of the deposited data

Results flagged for a closer look

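In 7 of 24 gene lists the median log2 ratio of kit to bulk had opposite signs in the vehicle and LNP-CRISPR pairs. The differences were not tested, since each group is 1 library. DNA replication genes had 0.50 in the vehicle pair and -0.09 in the LNP-CRISPR pair, and mitosis genes 0.02 and -0.25. Replication-dependent histones had 0.84 and -0.29. Immediate early genes had 0.14 and -0.76, and genes of NF-kB and acute inflammation 0.20 and -0.36. Glycolysis and hypoxia genes had -0.01 and 0.20, and p53 targets -0.16 and 0.22. With equal weight for each cell, the LNP-CRISPR median was 0.28 for DNA replication, 0.03 for mitosis and 0.12 for NF-kB genes, on the same side as the vehicle pair. The vehicle median was 0.07 for glycolysis genes and 0.04 for p53 targets in that setting, again on the side of the other pair. Histones and immediate early genes kept opposite sides there. Among low-cycle cells the vehicle median of histones was -0.88, and the LNP-CRISPR medians were 0.67 for DNA replication, 0.21 for NF-kB genes and -0.49 for p53 targets. The DNA replication and mitosis lists were used to choose the low-cycle cells, so the DNA replication median there carries no comparison. Thinned to 5000 UMIs the LNP-CRISPR medians were 0.11 for DNA replication, 0.08 for mitosis and -0.44 for p53 targets. Centred on the median gene, the LNP-CRISPR median of DNA replication was 0.04 and the vehicle median of glycolysis genes 0.06.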

How the results depend on the processing

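Counts of genes at least 2-fold higher or lower stayed within 1.5 times under at least 5 marker UMIs and under a filter of 1000 genes and 10% mitochondrial UMIs. With at least 30 expected UMIs they were 36 higher and 26 lower in the vehicle pair, 25 and 43 in the LNP-CRISPR pair and 10 and 6 in both, with 68.0% of genes in the same direction. Thinned to 5000 UMIs per cell they were 31 and 21, 30 and 26, and 7 and 6, with 57.5%. Without a filter on low counts they were 722 and 3907, 548 and 5676, and 118 and 2220. Centred on the median gene, 110 were lower in the LNP-CRISPR pair. With equal weight per cell 301 were higher in the vehicle pair, 150 higher in the LNP-CRISPR pair and 10 lower in both, with 56.4%. Among low-cycle cells 48 were lower in the vehicle pair, 69 lower in the LNP-CRISPR pair, 11 higher and 3 lower in both, with 52.7%. Among Myog cells 78 were lower in the LNP-CRISPR pair and 3 in both, with 55.7%. Weighted to the bulk mixture 9 were lower in both, with 61.4%. With under 1% of other cell types' UMIs 73 were higher in the vehicle pair and 5 in both, with 63.9%. The markers of that setting included fibre and smooth muscle genes that were among the genes higher in both pairs. Fewer UMIs or cells enter the stricter settings by construction; the cause of the other shifts was not tested.

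Among low-cycle cells the ratio of Hist1h1b in the vehicle pair turned to 0.901 and that of Actc1 in the LNP-CRISPR pair to 0.0829. Of 516 list medians over all alternatives 42 changed sign. No paired analysis was possible because each group is 1 library and the labels carry no replicate numbers. The 37 and 27 bulk cells limit every ratio.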

Other observations

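Some genes stood out among low-cycle cells that were not among the genes higher in both pairs over all myogenic cells. They were named after their values were seen. Erfe (erythroferrone, a hormone also made by muscle) stood at 37.4 CPM in vehicle bulk, 130 in vehicle kit, 58.4 in LNP-CRISPR bulk and 127 in LNP-CRISPR kit, and at 16.6 CPM or less in the cells outside the rule. The non-coding RNA H19, abundant in developing muscle, stood at 40.4, 108, 17.2 and 81.8 CPM in low-cycle cells, but at 312, 171, 99.3 and 169.6 CPM over all myogenic cells. Ogn (osteoglycin, a matrix proteoglycan) was higher with the kit, at 31.4, 94.9, 17.2 and 55.2 CPM.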
